A study of Mus musculus with 18 samples.

Results

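The 52 genes described here encode the proteins that license, fire and copy replication origins, together with the enzymes that supply deoxynucleotides and the regulators of entry into S phase. They were chosen by gene symbol from the 12960 genes of the deposited RPKM table (read numbers corrected for gene length and library size), and all 52 were present once. By role, 9 act in origin recognition and licensing, 6 form the MCM2-7 helicase, 8 activate the helicase, 9 are polymerase and primase subunits, 11 belong to the clamp, clamp loader, RPA and Okazaki fragment processing, 5 make nucleotides and 4 regulate the passage from G1 to S phase. The series compares mouse B lineage cells of the spleen that carry G9afl/fl and a Cre allele (KO), whose recombinase can delete the floxed G9a gene Ehmt2, with cells that carry the Cre allele alone (Ctrl), so that both genotypes hold it. For each genotype there were 3 libraries of naive B cells from mice that received no lipopolysaccharide (LPS), 3 of activated B cells (B220+GL7+) and 3 of plasma cells (CD138+ with middle or low B220). The last 2 cell types were sorted 72 h after 50 µg LPS in 100 µl was given by tail vein, from live cells negative for F4/80, Cd11b and Thy1.2, and the naive cells were enriched with CD43 beads and not sorted. Each library was made from 1000 cells, and the labels give neither ages nor whether replicates came from separate animals, so p-values cover only the spread among these libraries, which may be technical.

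Before a cell divides, the origin recognition complex together with Cdc6 and Cdt1 loads the ring of MCM2-7 proteins onto DNA, a step called licensing, which geminin (Gmnn) blocks by holding Cdt1. In S phase the kinase Cdc7 with its partner Dbf4 and the factors Cdc45, GINS and Mcm10 turn the loaded ring into an active helicase, and polymerase alpha with primase, polymerase delta and polymerase epsilon copy the strands behind it. The clamp Pcna is placed on DNA by replication factor C, RPA covers single-stranded DNA, and Fen1 and Lig1 finish Okazaki fragments. Ribonucleotide reductase, thymidylate synthase, thymidine kinase and dUTPase keep the deoxynucleotide pool. Many of these genes are known targets of E2F factors. Resting B cells hold few of these transcripts, antigen or LPS brings the cells into division, and plasmablasts go on dividing while mature plasma cells leave the cycle. G9a, the product of Ehmt2, adds mono- and dimethyl marks to histone H3 at H3K9, which marks repressed chromatin.

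Values are the authors' RPKM divided by a scaling factor per library, changes are differences of log2(scaled RPKM + 1), and tests are limma's with Benjamini-Hochberg adjustment over the 12787 genes tested. A gene is called where the adjusted p is under 0.05. An 18-library fit gives the main calls, and a fit of only the 6 libraries compared is given beside it, because naive libraries varied most. The median SD of a member on the log2 scale was 0.367 in naive KO and 0.338 in naive Ctrl libraries, but 0.102 and 0.112 in activated KO and Ctrl and 0.08502 and 0.114 in plasma cell KO and Ctrl libraries. Estimated depth was 1630000 to 3910000 reads in naive, 2670000 to 10800000 reads in activated and 5180000 to 6910000 reads in plasma cell libraries. Ehmt2 (Entrez 110147, chr17:34898463-34914073) had 23.3, 22.5 and 21.6 RPKM in KO libraries, against 21.6, 19.5 and 25.7 RPKM in Ctrl libraries in activated cells, 14.7, 12.3 and 14.3 RPKM in KO libraries, against 17.6, 16.2 and 17.8 RPKM in Ctrl libraries in plasma cells and 13.9, 23.3 and 13.9 RPKM in KO libraries, against 27.7, 16.7 and 13.8 RPKM in Ctrl libraries in naive cells. Only in plasma cells did its groups not overlap (log2 change -0.30, adjusted p = 0.11 in the 6-library fit), and a whole-gene RPKM cannot set the deleted exons apart from the rest. Of the markers checked against the labelled cell types, 6 of plasma cells summed to 7835 to 8798 RPKM in plasma cell KO and 8501 to 9528 RPKM in plasma cell Ctrl libraries, and to 337 to 436 RPKM in activated KO and 754 to 847 RPKM in activated Ctrl libraries, and 6 of naive and mature B cells to 4857 to 5114 RPKM in naive KO and 4459 to 4871 RPKM in naive Ctrl libraries. These are bulk samples, in which fewer cells of a type and less RNA per cell cannot be told apart.

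Promoter sequence was available for 43 of the 52 genes in RefSeq (GRCm38.p6, 250 bases before to 50 after each start), and not for Gmnn, Mcm4, Gins1, Gins2, Gins4, Prim2, Pole, Rfc2 and Ccne2. An E2F-type motif was searched in 4 spellings, TTTCCCGC, TTTCGCGC, TTTGCCGC and TTTGGCGC, on both strands, with overlapping matches counted. It was found in 16 of 43 members (37.2%), beside 704 of 27025 genes with a promoter entry (2.605%) and 471 of 10353 such genes of the expression table (4.55%). By role it was found in 4 of 5 MCM genes, 4 of 7 polymerase and primase genes and 4 of 8 licensing genes. It was also found in 1 of 3 G1 to S regulators, 1 of 5 helicase activation genes and 2 of 10 clamp and Okazaki genes. Of the nucleotide synthesis genes 0 of 5 held it. Promoter stretches are shown, with the motif in capitals, of Mcm3, Mcm6, Mcm5 and Cdc6, which were called higher in activated than in naive cells of both genotypes, and of Rfc3, which was called higher in KO cells (adjusted p = 0.000335) and not in Ctrl cells (adjusted p = 0.108), a difference between genotypes that was not called (adjusted p = 0.247).
Mcm3 (chr1:20820263-20820319, minus strand): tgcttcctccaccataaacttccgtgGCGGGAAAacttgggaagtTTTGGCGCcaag
Mcm6 (chr1:128359719-128359841, minus strand): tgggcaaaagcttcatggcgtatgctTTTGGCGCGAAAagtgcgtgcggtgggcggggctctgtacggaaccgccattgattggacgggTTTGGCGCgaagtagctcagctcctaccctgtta
Mcm5 (chr8:75109330-75109393, plus strand): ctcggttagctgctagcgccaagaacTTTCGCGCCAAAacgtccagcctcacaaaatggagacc
Rfc3 (chr5:151651175-151651244, minus strand): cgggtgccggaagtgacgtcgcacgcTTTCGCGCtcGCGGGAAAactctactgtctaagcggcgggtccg
Cdc6 (chr11:98907987-98908046, plus strand): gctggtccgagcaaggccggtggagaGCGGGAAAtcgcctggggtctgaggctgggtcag

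The motif also stood in the promoters of Cdt1 and Pold1, which were lower in activated Ctrl than in naive Ctrl cells, and of E2f2, which was lower in activated KO than in activated Ctrl cells, so that genes of both directions held it.
Cdt1 (chr8:122568021-122568064, plus strand): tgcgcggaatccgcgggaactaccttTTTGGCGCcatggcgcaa
Pold1 (chr7:44548766-44548802, minus strand): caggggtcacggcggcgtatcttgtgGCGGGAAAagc
E2f2 (chr4:136172287-136172323, plus strand): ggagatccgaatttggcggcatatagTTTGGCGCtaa

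Together the 52 genes made up 960.3 ± 35.9 RPKM in naive KO and 1008 ± 92.6 RPKM in naive Ctrl libraries, 4168 ± 97 RPKM in activated KO and 3399 ± 168 RPKM in activated Ctrl libraries, and 3163 ± 143 RPKM in plasma cell KO and 3013 ± 120.3 RPKM in plasma cell Ctrl libraries (mean ± SD of the summed level, n = 3 each). RPKM is per length, so levels can be set beside each other between genes, within the limits of shared exons and near neighbours given below. In naive cells the most abundant members were Rfc2, Pcna and Pold1, of which Rfc2 shares exonic bases with Lat2 and Pold1 lies near Spib. Rfc2, a small subunit of the clamp loader, averaged 102 ± 17.05 RPKM in naive KO and 90.5 ± 20.04 RPKM in naive Ctrl cells. In activated cells and plasma cells of both genotypes Rrm2, the S phase subunit of ribonucleotide reductase, came first and Pcna next. Rrm2 averaged 372 ± 16.5 RPKM in activated KO and 297 ± 15.8 RPKM in activated Ctrl cells, and 418 ± 22.8 RPKM in plasma cell KO and 433 ± 6.67 RPKM in plasma cell Ctrl cells. Its level in naive cells was 10.3 ± 9.901 RPKM in KO and 3.28 ± 2.15 RPKM in Ctrl. Pola1, the catalytic subunit of polymerase alpha, was the lowest member in activated cells and plasma cells, with 11.2 ± 0.953 RPKM in activated KO and 8.36 ± 0.788 RPKM in activated Ctrl cells. Members with a group mean under 1 RPKM were confined to naive cells, where Mcm10, Ccne2 and Cdc6 were under that level in KO and Cdc6 and Ccne2 in Ctrl.

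**Figure D1:**
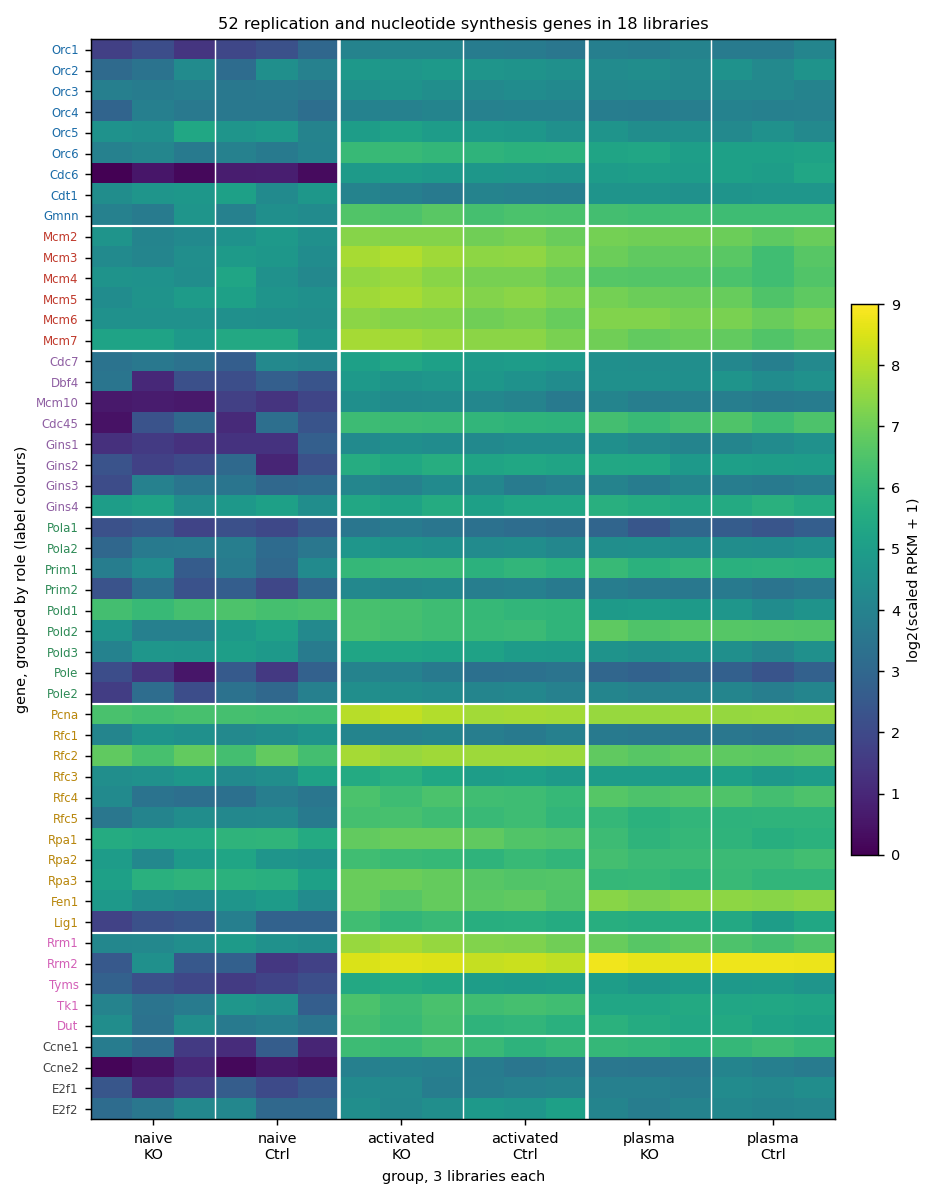
Heat map of the 52 members in rows, grouped by role, and the 18 libraries in columns, coloured by log2(scaled RPKM + 1). Most rows are dark, that is low, in the 6 naive libraries and brighter in the activated and plasma cell libraries. Cdt1, Pold1 and Rfc1 depart from this.

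Subunits of one complex differed in level to very different degrees. The 6 MCM2-7 genes lay close together, the highest group mean being 1.400 times the lowest in activated KO and 1.29 times in activated Ctrl cells. For the 3 RPA genes this ratio was 1.75 in activated KO and 1.601 in activated Ctrl cells. Among the 5 clamp loader genes Rfc2 was 13.5 times as high as Rfc1, the large subunit, in activated KO and 15.2 times in activated Ctrl cells. In the origin recognition complex the level ran between 15.03 RPKM for Orc4 and 64.8 RPKM for Orc6 in activated KO cells, and between 11.99 RPKM for Orc1 and 54.7 RPKM for Orc6 in activated Ctrl cells. The GINS genes were spread most in naive cells, where Gins4 was 18.5 times as high as Gins1 in KO and 9.39 times in Ctrl. Gins1 averaged only 1.57 RPKM in naive KO and 2.88 RPKM in naive Ctrl, so these ratios rest on a low level. The library kit does not mark strand, so reads in exons that 2 genes share cannot be assigned to one of them. In the GENCODE M21 annotation 14 members share exonic bases with another protein-coding gene and 6 share at least 10%: Gins2 with Gse1 (67.3% of its exonic bases), Orc2 with Nif3l1 (29.8%), Ccne2 with Ints8 (17.4%), Rfc2 with Lat2 (15.1%), Rfc4 with Eif4a2 (12.7%) and Rfc5 with Wsb2 (10.7%). Levels of these 6 genes are uncertain, by an amount that also depends on the level of the other gene. So are those of Fen1, 78.8% of whose exonic bases lie in the non-coding gene Gm10143 on the other strand, and Orc1 (10.8% with Gm12743).

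From naive to activated B cells nearly the whole set was higher. Of the 52 members 44 rose and 3 fell in Ctrl cells, against a background of 19% of tested genes higher and 39.4% lower. In the 6-library fit 42 rose and 3 fell, beside 16% and 35% of all genes. The median change of the members was 1.73 on the log2 scale, beside -0.29 over all tested genes. In KO cells 48 rose and 2 fell (background 21.2% and 34.5%), with 44 and 1 in the 6-library fit (background 17% and 25.1%) and a median change of 2.30, beside -0.26 over all genes. The step changed cell type, LPS and isolation method together, and these cannot be told apart. Markers of other cells moved with it: 5 erythroid markers summed to 37.5 to 46.2 RPKM in activated Ctrl, against 359.7 to 465 RPKM in naive Ctrl libraries, and 3 platelet markers to 1.24 to 1.37 RPKM in activated Ctrl, against 46.8 to 105 RPKM in naive Ctrl libraries. Library medians of 54 odorant receptor genes, which B cells are not known to use, were 0 to 0.982 RPKM in activated Ctrl and 4.498 to 7.07 RPKM in naive Ctrl. The deposited table holds genes that the authors took as detected. These 54 genes may therefore have entered it through the libraries in which they are high. The part of these markers and genes in the step was not tested.

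Licensing genes were split in Ctrl cells, with 7 of 9 higher and Cdt1 lower. Cdc6, the ATPase that loads the MCM ring with the origin recognition complex, had 26.2, 25.8 and 23.95 RPKM in activated Ctrl libraries, against 0.659, 0.703 and 0.201 RPKM in naive Ctrl libraries. Cdc6 was thus close to undetected in naive cells, and its log2 change of 4.13 (SE 0.18, adjusted p = 7.43e-12) understates the difference, as for any gene near 1 RPKM. Cdt1, which brings the ring to origins, had 15.2, 14.7 and 14.1 RPKM in activated Ctrl, against 33.7, 18.9 and 26.4 RPKM in naive Ctrl libraries. For Cdt1 the activated libraries were all below the naive ones (log2 change -0.77, SE 0.17, adjusted p = 0.000831). Cdt1 fell in KO cells too, to 15.3, 13.8 and 12.2 RPKM in activated KO, against 20.2, 25.1 and 26.04 RPKM in naive KO libraries (log2 change -0.75, SE 0.17, adjusted p = 0.00114).

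All 6 MCM2-7 genes rose in Ctrl cells, by 2.18 to 2.72 on the log2 scale. Mcm3 (Entrez 17215, chr1:20802966-20820312) had 176, 179 and 147 RPKM in activated Ctrl, against 29, 25.9 and 19.6 RPKM in naive Ctrl libraries. That was the largest change of the 6 (log2 change 2.72, SE 0.15, adjusted p = 1.52e-10). Mcm6 (Entrez 17219, chr1:128331575-128359705) had 130.4, 141 and 118 RPKM in activated Ctrl, against 21.7, 21.3 and 20.7 RPKM in naive Ctrl libraries. Naive libraries agreed closely for Mcm6, and it had the smallest p of the complex (log2 change 2.55, SE 0.10, adjusted p = 1.93e-12). Of the 8 genes of helicase activation 7 rose. Cdc45, which joins GINS and the MCM ring in the active helicase, had 59.1, 57.01 and 55.2 RPKM in activated Ctrl, against 1.12, 8.72 and 4.08 RPKM in naive Ctrl libraries. Naive libraries of Cdc45 were spread several fold but stayed far under the activated ones (log2 change 3.62, SE 0.49, adjusted p = 9.14e-06). Mcm10, which helps the helicase to start, had 16.8, 15.4 and 11.7 RPKM in activated Ctrl, against 2.24, 1.57 and 2.69 RPKM in naive Ctrl libraries (log2 change 2.31, SE 0.18, adjusted p = 1.38e-08).

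Polymerase genes rose in 6 of 9 cases in Ctrl cells and fell in 1. Prim1, the catalytic subunit of primase, had 53.96, 59.95 and 52.9 RPKM in activated Ctrl, against 12.6, 7.19 and 18.9 RPKM in naive Ctrl libraries. It had the largest change of the class (log2 change 2.12, SE 0.32, adjusted p = 2.89e-05). Pold1 (Entrez 18971, chr7:44532744-44548815), the catalytic subunit of polymerase delta, had 63.7, 60.2 and 57.9 RPKM in activated Ctrl, against 88.6, 79.8 and 84.7 RPKM in naive Ctrl libraries. Pold1 fell (log2 change -0.47, SE 0.11, adjusted p = 0.00169) while the changes of its partner subunits Pold2 and Pold3 were 1.28 and 0.46 (adjusted p = 3.33e-05 and 0.131), and in KO cells its change was 0.075 and not called (adjusted p = 0.583). The last exon of Pold1 lies 674 bases from the first exon of Spib, a gene on the same strand with 168 to 225 RPKM in activated Ctrl and 162 to 191 RPKM in naive Ctrl libraries, whose part in the Pold1 values was not tested. Among the 11 genes of the clamp, clamp loader, RPA and Okazaki fragment processing 9 rose. Pcna (Entrez 18538, chr2:132249286-132253180) had 215, 218 and 216 RPKM in activated Ctrl, against 79.8, 76.7 and 75.03 RPKM in naive Ctrl libraries (log2 change 1.48, SE 0.075, adjusted p = 5.71e-11). Pcna was already among the most abundant members in naive cells. Rfc4, a small clamp loader subunit, had 75.5, 73.5 and 64.8 RPKM in activated Ctrl, against 9.09, 13.4 and 10.7 RPKM in naive Ctrl libraries (log2 change 2.60, SE 0.19, adjusted p = 7.78e-09). Rfc1, the large subunit of the same complex, had 13.4, 12.1 and 14.2 RPKM in activated Ctrl, against 17.9, 20.2 and 24.4 RPKM in naive Ctrl libraries. Rfc1 therefore fell (log2 change -0.61, SE 0.16, adjusted p = 0.00295) where Rfc4 rose.

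The 5 nucleotide synthesis genes all rose in Ctrl cells. Rrm2 (Entrez 20135, chr12:24708254-24714146) had 297, 312 and 281 RPKM in activated Ctrl, against 5.74, 1.76 and 2.36 RPKM in naive Ctrl libraries. No other member changed as much (log2 change 6.23, SE 0.38, adjusted p = 5.27e-10). Rrm1 (Entrez 20133, chr7:102441695-102469771), the large subunit that pairs with Rrm2, had 155, 154 and 130.04 RPKM in activated Ctrl, against 28.8, 22.5 and 20.1 RPKM in naive Ctrl libraries (log2 change 2.58, SE 0.13, adjusted p = 5.71e-11). All 4 regulators of the G1 to S passage rose as well. Ccne1, a cyclin that activates Cdk2, had 67.3, 56.1 and 63.1 RPKM in activated Ctrl, against 1.23, 5.27 and 0.9198 RPKM in naive Ctrl libraries (log2 change 4.40, SE 0.42, adjusted p = 1.8e-07). Ccne2, its close relative, had 12.6, 10.7 and 11.99 RPKM in activated Ctrl, against 0.145, 0.506 and 0.3102 RPKM in naive Ctrl libraries, where it was close to undetected (log2 change 3.28, SE 0.21, adjusted p = 1.46e-09). Against naive Ctrl cells, plasma cell Ctrl cells were also higher in 38 members and lower in 2, Pold1 and Rfc1 (background 24.3% and 44.4%, median 1.52 beside -0.37 over all genes).

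**Figure D2:**
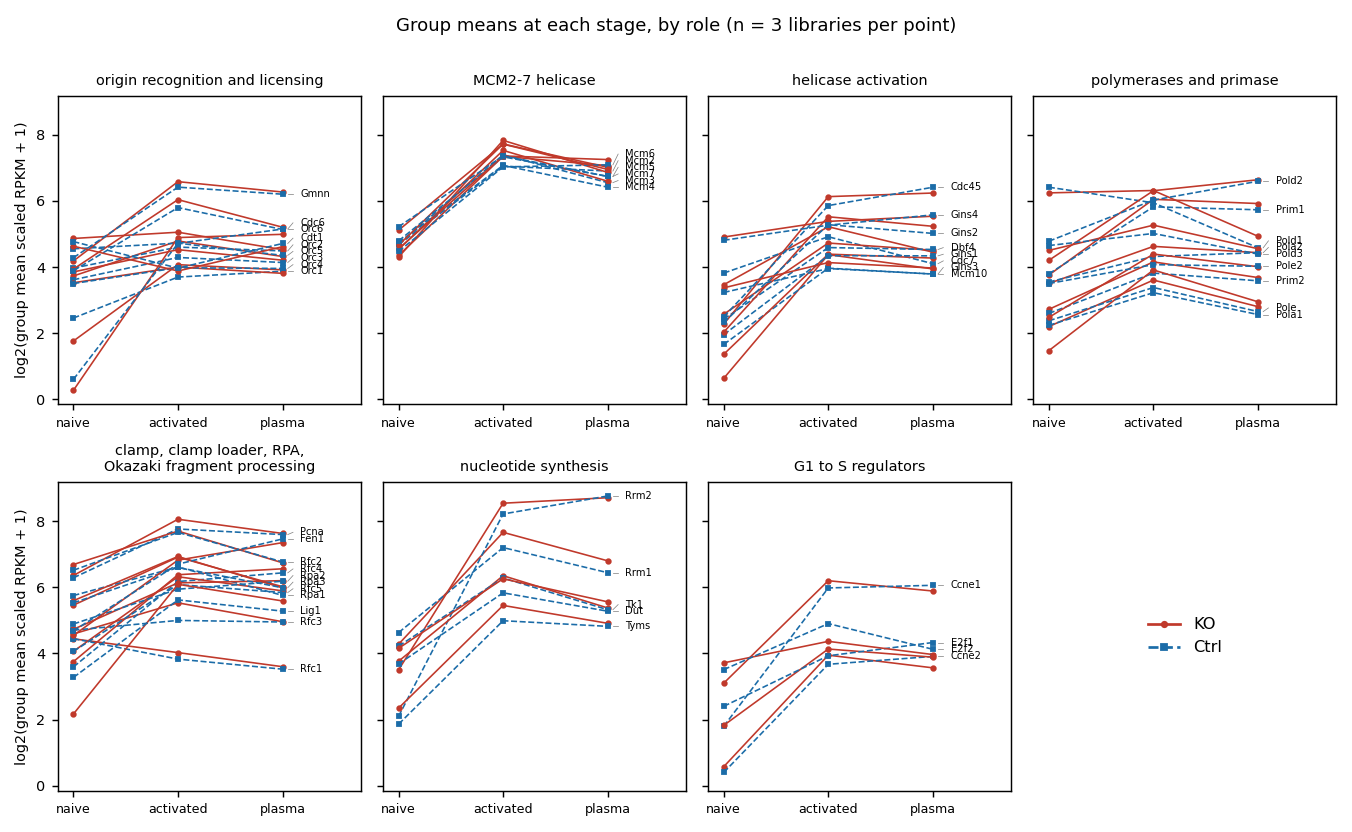
Group means of each member as log2(mean scaled RPKM + 1) at the naive, activated and plasma cell stage, in 1 panel per role, with KO as solid red and Ctrl as dashed blue lines (n = 3 libraries per point). Most lines climb steeply to the activated stage and then stay level or descend, while Cdt1, Pold1 and Rfc1 descend to the activated stage in Ctrl.

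Between the activated and the plasma cell stage the set did not move as one. In Ctrl cells 3 members rose, Cdt1, Pold2 and Fen1, and 14 fell, against a background of 16.1% higher and 16.7% lower. In the 6-library fit 10 rose and 24 fell (background 24.1% and 26.2%). With all libraries kept, the share of members that fell was above the background in both fits. The median change of the members was -0.17, beside -0.025 over all genes. In KO cells 2 rose, Cdt1 and Fen1, and 20 fell (background 15.8% and 17.4%), with 3 and 34 in the 6-library fit (background 24.4% and 28.4%) and a median of -0.41, beside -0.019. Without plasma cell Ctrl replicate 3, 9 members fell in Ctrl cells in place of 14. In KO cells 13 fell without activated KO replicate 1 or plasma cell KO replicate 1, and 12 without plasma cell KO replicate 3 or 4, in place of 20. This step shares its activated libraries with the step before, so the directions of the 2 steps are not independent.

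Among licensing genes Cdt1 rose to 24.3, 25.8 and 25.7 RPKM in plasma cell Ctrl, against 15.2, 14.7 and 14.1 RPKM in activated Ctrl libraries. Every plasma cell library was above every activated one (log2 change 0.75, SE 0.17, adjusted p = 0.00163). Orc6, the smallest origin recognition subunit, had 33.3, 33.7 and 35.7 RPKM in plasma cell Ctrl, against 57.4, 53.1 and 53.7 RPKM in activated Ctrl libraries, with no overlap (log2 change -0.66, SE 0.13, adjusted p = 0.000419). The MCM2-7 genes fell in 4 of 6 cases. Mcm3 had 104, 75.3 and 100.1 RPKM in plasma cell Ctrl, against 176, 179 and 147 RPKM in activated Ctrl libraries (log2 change -0.85, SE 0.15, adjusted p = 0.000156). Mcm6 did not follow: it had 144, 121 and 141 RPKM in plasma cell Ctrl, against 130.4, 141 and 118 RPKM in activated Ctrl libraries, and its groups overlapped (adjusted p = 0.756). The ring subunits, close in level in activated cells, had a highest over lowest ratio of 1.603 in plasma cell Ctrl, against 1.29 in activated Ctrl cells. Cdc7, the kinase that fires origins, had 17.1, 13.7 and 17.8 RPKM in plasma cell Ctrl, against 29.04, 30.8 and 27.9 RPKM in activated Ctrl libraries (log2 change -0.82, SE 0.27, adjusted p = 0.0232).

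The subunits of polymerase delta parted. Pold1 had 25.5, 19.9 and 23.5 RPKM in plasma cell Ctrl, against 63.7, 60.2 and 57.9 RPKM in activated Ctrl libraries. Its change was the largest of the set in this step (log2 change -1.37, SE 0.11, adjusted p = 1.19e-08). Pold2, an accessory subunit, had 98.7, 94.8 and 93.8 RPKM in plasma cell Ctrl, against 65.4, 69.3 and 57.8 RPKM in activated Ctrl libraries, with all plasma cell libraries above (log2 change 0.57, SE 0.20, adjusted p = 0.0292). Spib, the neighbour of Pold1, had 0.621 to 0.868 RPKM in plasma cell Ctrl, against 168 to 225 RPKM in activated Ctrl libraries, and its part in the fall of Pold1 was not tested. Rfc2 had 108, 105 and 111 RPKM in plasma cell Ctrl, against 202, 203 and 199 RPKM in activated Ctrl libraries (log2 change -0.89, SE 0.13, adjusted p = 2.39e-05). Lat2, which shares exonic bases with Rfc2, had 49.8 to 71.7 RPKM in plasma cell Ctrl, against 190.5 to 210.3 RPKM in activated Ctrl libraries, and its part in the fall of Rfc2 was not tested either. Rpa1, the large subunit of the single-strand binding protein, had 57.4, 48.8 and 53.03 RPKM in plasma cell Ctrl, against 109.7, 93.3 and 88.01 RPKM in activated Ctrl libraries, again with no overlap (log2 change -0.85, SE 0.12, adjusted p = 1.47e-05). Fen1 (Entrez 14156, chr19:10199132-10204393), the nuclease that trims Okazaki fragments, went the other way, with 176, 168 and 183 RPKM in plasma cell Ctrl, against 106, 109 and 93.2 RPKM in activated Ctrl libraries (log2 change 0.77, SE 0.15, adjusted p = 0.00045). Of the exonic bases of Fen1, 78.8% lie in Gm10143 and 5.37% in Tmem258, and the part of these genes in its rise was not tested.

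Nucleotide synthesis genes parted too. Rrm1 had 88.9, 78.5 and 90.6 RPKM in plasma cell Ctrl, against 155, 154 and 130.04 RPKM in activated Ctrl libraries (log2 change -0.76, SE 0.13, adjusted p = 0.00013). Tk1, the thymidine kinase of the salvage route, had 39.1, 40.1 and 37.9 RPKM in plasma cell Ctrl, against 74.1, 81.1 and 75.2 RPKM in activated Ctrl libraries (log2 change -0.96, SE 0.33, adjusted p = 0.0324). Both fell, whereas Rrm2 had 431, 441 and 428 RPKM in plasma cell Ctrl, against 297, 312 and 281 RPKM in activated Ctrl libraries, all above, and was called only in the 6-library fit (adjusted p = 0.328 and 5.52e-05 in the 18- and 6-library fits). E2f2, a transcription factor of the E2F family, had 16.96, 15.9 and 16.6 RPKM in plasma cell Ctrl, against 27.5, 25.3 and 33.9 RPKM in activated Ctrl libraries (log2 change -0.77, SE 0.26, adjusted p = 0.0319). Leaving out 1 of the 6 libraries at a time from the 18-library fit, the call of Tk1 was lost in 6 such fits, those of E2f2 and Pold2 in 5 each (all but that without activated Ctrl replicate 3) and that of Cdc7 in 3 (activated Ctrl replicate 1 or 3, plasma cell Ctrl replicate 3), with adjusted p-values up to 0.089 for Tk1, 0.129 for E2f2, 0.111 for Pold2 and 0.0969 for Cdc7. In the 6-library fit these 4 calls held in all such fits. The other 3 regulators of the G1 to S passage had changes between 0.081 and 0.40 in this step and were not called in the 18-library fit.

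In activated B cells most of the set was higher in KO than in Ctrl. All 3 KO libraries were above all 3 Ctrl libraries in 38 of 52 members, against 15.3% of all tested genes, and all below in 1, E2f2, against 16%. The summed level of the MCM2-7 genes was 1156 ± 65.4 RPKM in KO and 887 ± 75.9 RPKM in Ctrl, and that of the nucleotide synthesis genes 773 ± 18.9 RPKM in KO and 607 ± 35.2 RPKM in Ctrl (mean ± SD, n = 3 each). The median change was 0.28 on the log2 scale, beside -0.016 over all genes, 50 of 52 changes were positive, and single changes lay between -0.53 and 0.52. In the 18-library fit 0 members were called higher and 0 lower (background 0.422% and 1.36%), with 13 at an unadjusted p under 0.05 (beside 10.1% of all genes). In the 6-library fit 18 rose and 1 fell (background 5.26% and 6.02%), with 37 at an unadjusted p under 0.05 (beside 26% of all genes). Leaving out 1 of the 6 libraries at a time left 4 to 15 members higher, with 4 without KO replicate 1, 5 without Ctrl replicate 4, 9 without Ctrl replicate 1 and 12 without KO replicate 4, and Mcm4, Rrm1 and Tyms were called in all 6 such fits, whereas Orc1 and Cdc45 were called in none. The statistics that follow are from the 6-library fit, in which the 18 genes had adjusted p-values of 0.00602 to 0.0351. The same genes had 0.0534 to 1 in the 18-library fit.

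**Figure D3:**
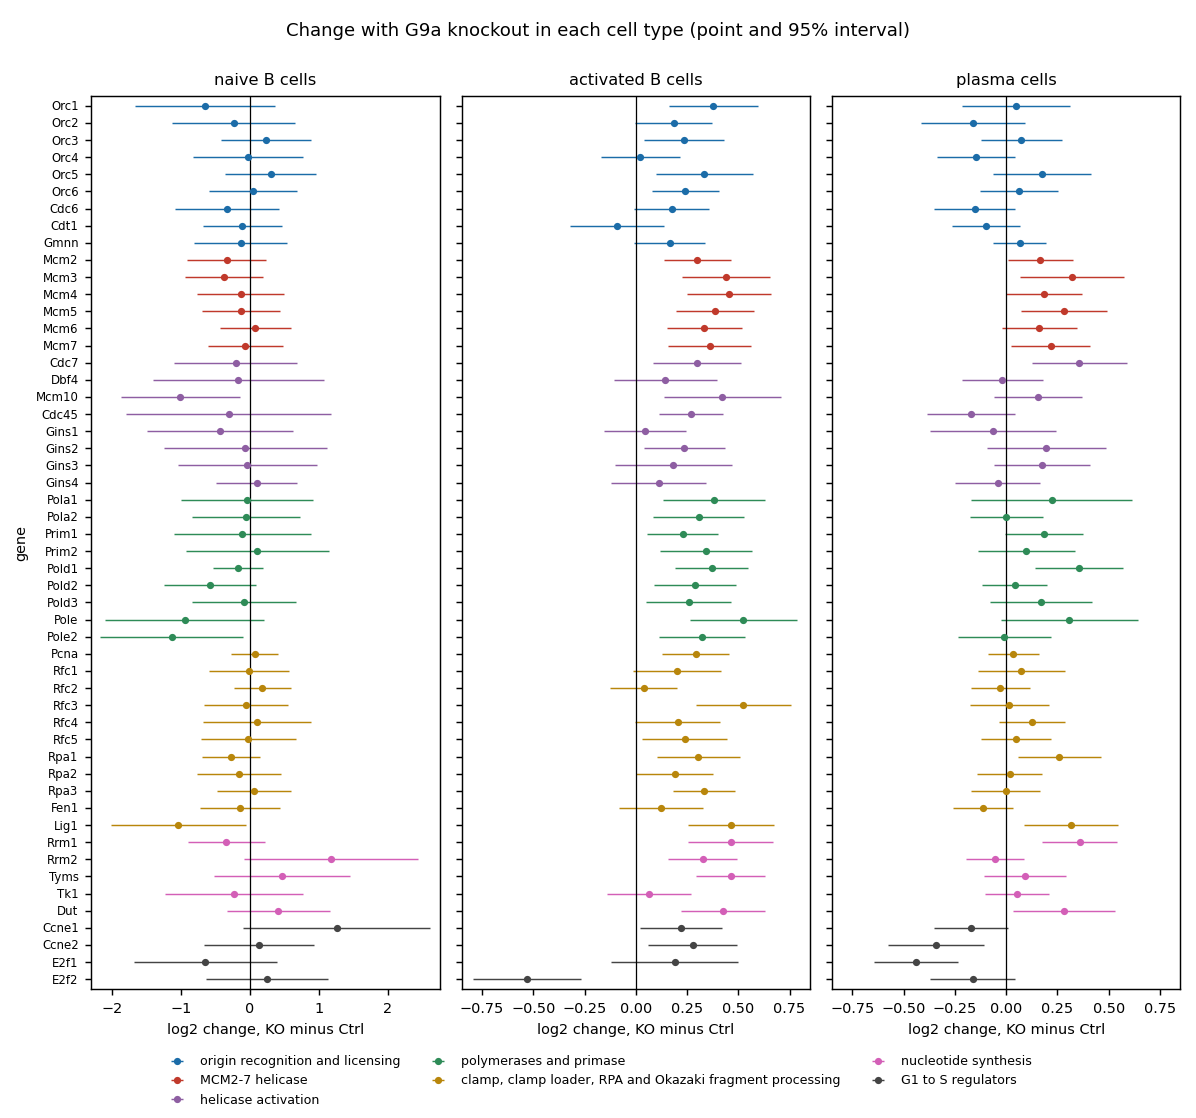
Log2 change of each member, KO minus Ctrl, with the 95% confidence interval of the fit of the 6 libraries compared, in 1 panel each for naive, activated and plasma cells, grouped by role; the naive panel has a wider axis. In the naive panel 16 of 52 points lie right of 0, in the activated panel 50 and in the plasma cell panel 35.

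All 6 genes of the MCM2-7 ring rose in the 6-library fit, with no overlap between the groups of any of them. Mcm3 had 224, 247 and 209.9 RPKM in KO libraries, against 176, 179 and 147 RPKM in Ctrl libraries. Its lowest KO library was above its highest Ctrl library (log2 change 0.44, SE 0.10, adjusted p = 0.0185). Mcm4 (Entrez 17217, chr16:15623897-15637400) had 184, 198 and 169.7 RPKM in KO libraries, against 142, 141 and 119 RPKM in Ctrl libraries (log2 change 0.45, SE 0.092, adjusted p = 0.0141). Mcm5 had 211, 228 and 192 RPKM in KO libraries, against 161, 171 and 149 RPKM in Ctrl libraries (log2 change 0.39, SE 0.086, adjusted p = 0.02). The groups of neither gene overlapped. Mcm2 had 165, 162 and 159 RPKM in KO libraries, against 132, 140.2 and 123 RPKM in Ctrl libraries (log2 change 0.30, SE 0.073, adjusted p = 0.029). Mcm6 had 172, 161 and 157 RPKM in KO libraries, against 130.4, 141 and 118 RPKM in Ctrl libraries (log2 change 0.33, SE 0.082, adjusted p = 0.0295). Mcm7 had 219, 215 and 195 RPKM in KO libraries, against 173, 173 and 144 RPKM in Ctrl libraries (log2 change 0.36, SE 0.092, adjusted p = 0.0335). The 6 changes lay between 0.30 and 0.45, and the highest over lowest ratio of the 6 genes, given above, was close in KO and Ctrl.

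Of the 9 licensing genes 1 was called, and 7 had all KO libraries above all Ctrl libraries. Orc1 (Entrez 18392, chr4:108575705-108616030), the subunit that opens the origin recognition complex to Cdc6, had 15.3, 16.1 and 16.2 RPKM in KO libraries, against 12.8, 12.4 and 10.8 RPKM in Ctrl libraries. KO libraries of Orc1 stood clear of the Ctrl ones (log2 change 0.38, SE 0.10, adjusted p = 0.0351). Orc3, another subunit, had 21.96, 23.5 and 20.8 RPKM in KO libraries, against 17.99, 19.6 and 18.2 RPKM in Ctrl libraries, which also did not overlap but was not called (log2 change 0.24, SE 0.087, adjusted p = 0.116). Cdt1 was the exception of the class, with 15.3, 13.8 and 12.2 RPKM in KO libraries, against 15.2, 14.7 and 14.1 RPKM in Ctrl libraries, groups that overlapped and a change of -0.091. In helicase activation 1 of 8 genes was called. Cdc45 had 70.4, 69.9 and 66.96 RPKM in KO libraries, against 59.1, 57.01 and 55.2 RPKM in Ctrl libraries (log2 change 0.27, SE 0.070, adjusted p = 0.0351). Mcm10 had 21.2, 18.8 and 19.3 RPKM in KO libraries, against 16.8, 15.4 and 11.7 RPKM in Ctrl libraries, with the largest change of the class and no call (log2 change 0.42, SE 0.13, adjusted p = 0.0616).

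All 9 polymerase and primase genes had every KO library above every Ctrl library, with changes of 0.23 to 0.52, and 2 were called. Pole (Entrez 18973, chr5:110286319-110337468), the catalytic subunit of the leading strand polymerase, had 15.4, 14.9 and 11.9 RPKM in KO libraries, against 8.95, 9.31 and 10.04 RPKM in Ctrl libraries. It had the largest change of the class, with KO libraries that were themselves spread (log2 change 0.52, SE 0.12, adjusted p = 0.02). Pold1 had 82.6, 80.99 and 72.4 RPKM in KO libraries, against 63.7, 60.2 and 57.9 RPKM in Ctrl libraries (log2 change 0.37, SE 0.080, adjusted p = 0.0176). Its neighbour Spib had 126 to 157 RPKM in KO and 168 to 225 RPKM in Ctrl libraries, the opposite direction. The clamp and Okazaki genes included 4 calls among 11. Pcna had 261, 284 and 251 RPKM in KO libraries, against 215, 218 and 216 RPKM in Ctrl libraries. Pcna had the smallest p of all members in the 18-library fit, just short of a call (adjusted p = 0.0534, and 0.0313 in the 6-library fit, log2 change 0.29). Rfc3, a small clamp loader subunit, had 43.9, 52.1 and 39.7 RPKM in KO libraries, against 31.1, 32.8 and 29.1 RPKM in Ctrl libraries (log2 change 0.52, SE 0.10, adjusted p = 0.0133). Rpa3, the smallest RPA subunit, had 122, 124 and 117 RPKM in KO libraries, against 99.1, 92.6 and 96.2 RPKM in Ctrl libraries (log2 change 0.33, SE 0.069, adjusted p = 0.015). Lig1 (Entrez 16881, chr7:13277175-13311426), the ligase that seals Okazaki fragments, had 74.9, 58.98 and 67.6 RPKM in KO libraries, against 49.1, 49.6 and 45.7 RPKM in Ctrl libraries, without overlap (log2 change 0.47, SE 0.094, adjusted p = 0.0141).

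Of the 5 nucleotide synthesis genes 4 were called. Tyms (Entrez 22171, chr5:30038546-30073645), thymidylate synthase, had 41.9, 45.1 and 41.4 RPKM in KO libraries, against 31.2, 29.8 and 31.4 RPKM in Ctrl libraries. Within each genotype the Tyms libraries were close, and it had the smallest p of the set in the 6-library fit (log2 change 0.46, SE 0.076, adjusted p = 0.00602). Rrm1 had 193, 220.3 and 191 RPKM in KO libraries, against 155, 154 and 130.04 RPKM in Ctrl libraries (log2 change 0.46, SE 0.092, adjusted p = 0.0137). Rrm2 had 356, 389 and 372 RPKM in KO libraries, against 297, 312 and 281 RPKM in Ctrl libraries (log2 change 0.33, SE 0.075, adjusted p = 0.023). Dut, the dUTPase, had 77.7, 68.4 and 80.6 RPKM in KO libraries, against 56.6, 60.4 and 51.04 RPKM in Ctrl libraries (log2 change 0.42, SE 0.091, adjusted p = 0.0176). All 3 were without overlap, whereas Tk1 had 87.4, 70.7 and 84 RPKM in KO libraries, against 74.1, 81.1 and 75.2 RPKM in Ctrl libraries, which overlapped (change 0.065). The 4 regulators of S phase entry differed among themselves. E2f2 (Entrez 242705, chr4:136172274-136196057) had 20.7, 17.5 and 20.7 RPKM in KO libraries, against 27.5, 25.3 and 33.9 RPKM in Ctrl libraries and fell (log2 change -0.53, SE 0.12, adjusted p = 0.0201), a call that was lost without Ctrl replicate 1, Ctrl replicate 4 or KO replicate 3. E2f1, the best known activator of these genes, had 18.96, 17.8 and 12.9 RPKM in KO libraries, against 12.98, 14.4 and 15.4 RPKM in Ctrl libraries, and its groups overlapped (change 0.19, adjusted p = 0.449). Ccne1 and Ccne2 were above Ctrl in all KO libraries without being called (changes 0.22 and 0.28, adjusted p = 0.147 and 0.098).

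**Figure D4:**
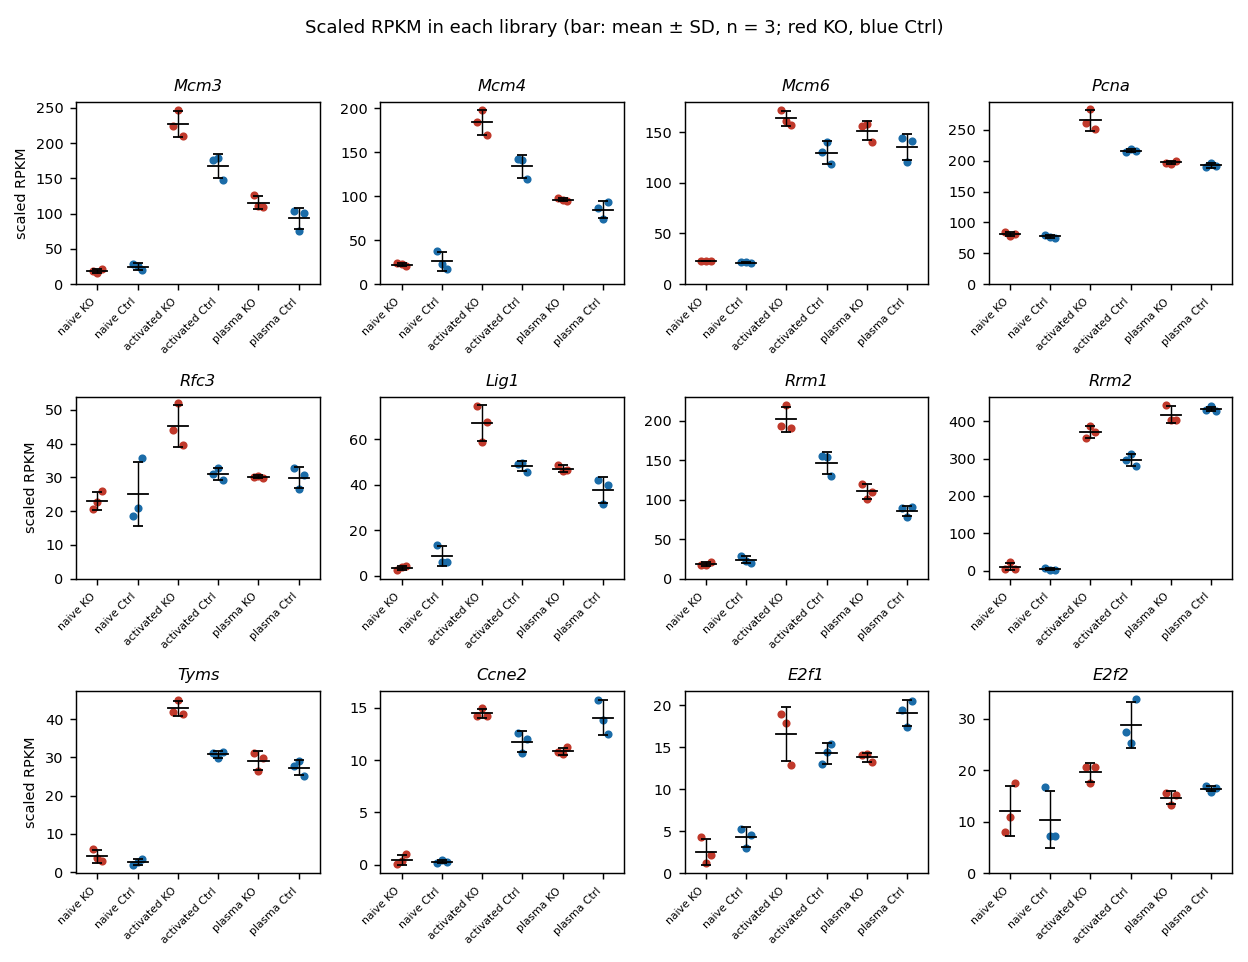
Scaled RPKM of 12 members in each of the 18 libraries (points) with the mean ± SD of each group (bars, n = 3), KO in red left of Ctrl in blue at the naive, activated and plasma cell stage; each panel has its own linear axis. In activated cells the KO points lie above the Ctrl points in 10 panels, overlap them for E2f1 and lie below them for E2f2.

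Markers of other cells and states also differed between activated KO and Ctrl libraries. The sum of the 6 plasma cell markers, given above, was lower in KO. Sdc1, Prdm1, Xbp1 and Jchain had all KO libraries below all Ctrl libraries, and Tnfrsf17 and Irf4 overlapped. The 6 markers of naive and mature B cells summed to 2290.3 to 2463 RPKM in KO and 3064 to 3507 RPKM in Ctrl libraries, and 6 markers of activated and germinal centre B cells to 226 to 278 RPKM in KO and 196 to 237 RPKM in Ctrl libraries. Of 11 erythroid markers the 5 measured summed to 112 to 123 RPKM in KO and 37.5 to 46.2 RPKM in Ctrl libraries, and without Tfrc and Car2, which other dividing cells may express, the other 3 summed to 45.6 to 63.3 RPKM in KO and 10.2 to 12.9 RPKM in Ctrl libraries. Of these 3, Hbb-bs had 14.7 to 22.8 RPKM in KO and 3.59 to 4.19 RPKM in Ctrl. Hbb-b2 had 30.9 to 40.3 RPKM in KO and 6.15 to 7.94 RPKM in Ctrl. Hba-a2 was not higher in KO, with 0 to 0.232 RPKM in KO and 0.125 to 0.86 RPKM in Ctrl. Of the B cell markers Cd79a, Cd79b and Ptprc had all KO libraries below all Ctrl libraries, and Ms4a1, Fcer2a and Cr2 overlapped. Of 8 T cell markers the 3 measured summed to 10.8 to 12.8 RPKM in KO and 6.399 to 7.41 RPKM in Ctrl libraries, of which Lck made up 10.02 to 12.6 RPKM in KO and 6.303 to 7.38 RPKM in Ctrl. No marker of these lists was at 0 in all 3 libraries of either group. Their part in the differences of the replication genes was not tested.

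In plasma cells the KO and Ctrl levels lay closer together. All KO libraries were above all Ctrl libraries in 11 of 52 members, against 11.2% of all genes, and all below in 6, against 13.6%. The median change was 0.065, beside -0.0036 over all genes, and 35 of 52 changes were positive. The 18-library fit called 0 members higher and 0 lower (background 0.438% and 0.172%), with 4 at an unadjusted p under 0.05 (beside 5.87% of all genes), and in the 6-library fit 1 rose, Rrm1, and 1 fell, E2f1 (background 2.38% and 2.73%, 13 at an unadjusted p under 0.05, beside 19.2% of all genes). Rrm1 had 119.9, 101 and 110.3 RPKM in KO libraries, against 88.9, 78.5 and 90.6 RPKM in Ctrl libraries, all KO libraries above (log2 change 0.36, SE 0.082, adjusted p = 0.0354). E2f1 had 14.1, 14.1 and 13.2 RPKM in KO libraries, against 19.5, 17.4 and 20.5 RPKM in Ctrl libraries, all KO libraries below (log2 change -0.44, SE 0.091, adjusted p = 0.0249). Neither call was firm: that of Rrm1 was lost without Ctrl replicate 1, Ctrl replicate 3, KO replicate 1 or KO replicate 4, and that of E2f1 held only without Ctrl replicate 3 among the 6 such fits.

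The other 3 regulators of the G1 to S passage, Ccne1, Ccne2 and E2f2, also had all KO libraries below all Ctrl libraries, with changes of -0.17, -0.34 and -0.16 and no call. The MCM2-7 genes had positive changes in 6 of 6 cases and no overlap in 4. Mcm3 had 126, 111 and 109.9 RPKM in KO libraries, against 104, 75.3 and 100.1 RPKM in Ctrl libraries, without overlap and not called (log2 change 0.32, SE 0.11, adjusted p = 0.152). Of the licensing genes Orc5 had 24.3, 20.4 and 21.5 RPKM in KO libraries, against 18.05, 22.4 and 17.99 RPKM in Ctrl libraries (change 0.18), and Cdc6 had 30.5, 31.8 and 30.2 RPKM in KO libraries, against 33.6, 31.1 and 38.98 RPKM in Ctrl libraries (change -0.15). Both overlapped between genotypes. Cdc7 had 21.1, 20.9 and 20.6 RPKM in KO libraries, against 17.1, 13.7 and 17.8 RPKM in Ctrl libraries, which did not overlap (log2 change 0.36, SE 0.10, adjusted p = 0.0836). Pold1 had 29.2, 30.6 and 28.8 RPKM in KO libraries, against 25.5, 19.9 and 23.5 RPKM in Ctrl libraries, again clear of each other and not called (log2 change 0.35, SE 0.10, adjusted p = 0.065). Rpa1 had 70.7, 57.5 and 63.2 RPKM in KO libraries, against 57.4, 48.8 and 53.03 RPKM in Ctrl libraries (log2 change 0.26, SE 0.090, adjusted p = 0.143), and Lig1 had 48.8, 46.2 and 46.4 RPKM in KO libraries, against 42.3, 31.5 and 39.9 RPKM in Ctrl libraries (log2 change 0.32, SE 0.10, adjusted p = 0.113). These too were separated between KO and Ctrl without passing the test. For Rpa1 the gap was slight, with 57.5 RPKM in the lowest KO and 57.4 RPKM in the highest Ctrl library. Beside these values, 3 erythroid markers without Tfrc and Car2 summed to 1.28 to 55.5 RPKM in plasma cell KO and 0.2505 to 0.764 RPKM in plasma cell Ctrl libraries. A single KO library carried most of the KO signal, with 18.7 RPKM of Hba-a2, 26.7 RPKM of Hbb-bs and 10.1 RPKM of Hbb-b2. Hba-a2 overlapped between genotypes, whereas Hbb-bs and Hbb-b2 did not. The 6 B cell markers summed to 1043 to 1217 RPKM in KO and 1425 to 1732 RPKM in Ctrl, where Cd79a and Cd79b were lower and Fcer2a and Cr2 higher in every KO library. The 3 T cell markers summed to 8.17 to 12.2 RPKM in KO and 1.31 to 2.18 RPKM in Ctrl, a gap carried by Cd3e alone, with 7.19 to 10.2 RPKM in KO and 0 to 0.121 RPKM in Ctrl. Lck had 0.909 to 1.98 RPKM in KO and 1.09 to 2.06 RPKM in Ctrl, and Cd4 had 0.0467 to 0.0739 RPKM in KO and 0 to 0.108 RPKM in Ctrl, both overlapping. Of the 6 plasma cell markers 3 had all KO libraries below all Ctrl libraries. These were Sdc1 (135 to 146 RPKM in KO, 163 to 188 RPKM in Ctrl), Xbp1 (1784 to 2034 and 2272 to 2645 RPKM) and Tnfrsf17 (74.7 to 75.7 and 106 to 139 RPKM). Prdm1, Jchain and Irf4 overlapped. The part of all these markers in the result was not tested.

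In naive B cells the set was low in both genotypes, and its members were not shifted upward in KO. The median change was -0.10, beside -0.086 over all genes, and 16 of 52 changes were positive. All KO libraries were above all Ctrl libraries in 2 members, Orc3 and Mcm6, and below in 2, Mcm10 and Lig1 (background 4.32% and 7.84%). The 18-library fit called 0 higher and 3 lower (background 2.1% and 5.12%), but its shared spread is smaller than that of the naive libraries, and in the 6-library fit 0 members rose and 0 fell (background 0% and 0%, 3 members at an unadjusted p under 0.05, beside 7.02% of all genes). The 18-library count of lower members was 5 without Ctrl replicate 1 or 2 and 6 without Ctrl replicate 3 or KO replicate 1. Mcm10 had 0.516, 0.611 and 0.535 RPKM in KO libraries, against 2.24, 1.57 and 2.69 RPKM in Ctrl libraries (log2 change -1.01, SE 0.18, adjusted p = 0.00364, 18-library fit, and 0.692 in the 6-library fit). Lig1 had 2.42, 3.71 and 4.36 RPKM in KO libraries, against 13.8, 6.12 and 6.13 RPKM in Ctrl libraries (log2 change -1.04, SE 0.23, adjusted p = 0.0121, and 0.698 in the 6-library fit). For both, KO libraries were all lower and at a few RPKM or less. Pole2, an accessory subunit of polymerase epsilon, had 2.07, 8.297 and 3.37 RPKM in KO libraries, against 9.596, 7.23 and 14.2 RPKM in Ctrl libraries, which overlapped (log2 change -1.14, SE 0.29, adjusted p = 0.0245, and 0.698 in the 6-library fit), and its call was lost without Ctrl replicate 3, KO replicate 1 or KO replicate 3.

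No other member was called. Orc1 had 2.26, 3.32 and 1.62 RPKM in KO libraries, against 2.81, 3.76 and 6.95 RPKM in Ctrl libraries, which overlapped (change -0.65, adjusted p = 0.0949). Mcm3 had 18.98, 16.2 and 20.98 RPKM in KO libraries, against 29, 25.9 and 19.6 RPKM in Ctrl libraries, which overlapped too (change -0.38, adjusted p = 0.127). Rrm2 had 4.65, 21.8 and 4.59 RPKM in KO libraries, against 5.74, 1.76 and 2.36 RPKM in Ctrl libraries, and Ccne1 had 12.6, 8.29 and 1.88 RPKM in KO libraries, against 1.23, 5.27 and 0.9198 RPKM in Ctrl libraries. For Rrm2, 1 KO library stood far above all others, and for Ccne1, 2 KO libraries were above the highest Ctrl library. Their changes of 1.18 and 1.25 were not called (adjusted p = 0.0632 and 0.0751). Naive libraries included the shallowest, and the 54 odorant receptor genes may have entered the deposited table through them. Library medians of these genes were 1.69 to 5.02 RPKM in naive KO and 4.498 to 7.07 RPKM in naive Ctrl, but under 1 RPKM in all other libraries. In the same libraries 5 erythroid markers summed to 341 to 664 RPKM in KO and 359.7 to 465 RPKM in Ctrl, and 3 platelet markers to 40.9 to 72.7 RPKM in KO and 46.8 to 105 RPKM in Ctrl. The part of these in the naive values was not tested.

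The difference of the KO effect between cell types was tested itself. Between activated and naive cells the KO effect was more positive in activated cells for 47 of 52 members, with a median difference of 0.33, beside 0.091 over all genes, and 4 passed the test in the 18-library fit, Mcm3, Mcm10, Lig1 and Rrm1 (background 1.35% higher and 1.27% lower). The differences were 0.82 for Mcm3 (adjusted p = 0.0448), 1.43 for Mcm10 (adjusted p = 0.00816), 1.51 for Lig1 (adjusted p = 0.0186) and 0.80 for Rrm1 (adjusted p = 0.0266). In the fit of the 4 groups compared 0 members passed (background 0.0626%), where their adjusted p-values were 0.129 for Mcm3, 0.102 for Mcm10, 0.106 for Lig1 and 0.125 for Rrm1. The 18-library count of 4 was 1 without activated Ctrl replicate 4 or activated KO replicate 1, 2 without activated Ctrl or KO replicate 3, 7 without naive KO replicate 1 and 8 without naive Ctrl replicate 3, and 6 without replicate 2 of either naive group. Between plasma cells and naive cells 2 passed in the 18-library fit, Mcm10 with 1.16 (adjusted p = 0.0289) and Lig1 with 1.36 (adjusted p = 0.0447), and 0 when only those 4 groups were fitted (background 0.946% higher, 0.438% lower, and 0.133% higher in the fit of 4 groups). Both were lost without any 1 of the 6 plasma cell libraries, whereas 6 members passed without naive Ctrl replicate 3 and 4 without replicate 2 of either naive group. Between plasma cells and activated cells the KO effect was less positive in plasma cells for all but 2 members, with a median difference of -0.16, beside 0.0060 over all genes. Of these differences 0 and 0 were called in the 18-library fit (background 0.156% higher and 0% lower), and 1, that of Ccne2, in the fit of the 4 groups (background 0.375%). Ccne2 had 10.8, 10.5 and 11.2 RPKM in KO libraries, against 15.8, 13.8 and 12.5 RPKM in Ctrl libraries in plasma cells and 14.2, 14.9 and 14.2 RPKM in KO libraries, against 12.6, 10.7 and 11.99 RPKM in Ctrl libraries in activated cells. KO libraries were thus all below Ctrl in plasma cells and all above in activated cells, a difference of -0.62 (SE 0.14, adjusted p = 0.036), with 17.4% of the exonic bases of Ccne2 shared with Ints8. In the 18-library fit 1 member had an unadjusted p under 0.05 for this difference, and 14 in the fit of the 4 groups, beside 3.25% of all genes in the first and 13.4% of all genes in the second.

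A further 87 genes of the same processes, other fork factors, deoxynucleotide enzymes, enzymes that build purine and pyrimidine rings and cell cycle regulators, were examined in the same way. In activated cells the 18-library fit called 0 of them (27 at an unadjusted p under 0.05, beside 10.1% of all genes), and in the 6-library fit 29 rose in KO and 4 fell, beside 5.26% and 6.02% of all genes, with a median change of 0.26, beside -0.016 over all genes. Of the ring synthesis enzymes 14 of 19 were higher and 1 lower, beside 9 and 1 of 34 fork factors, 3 and 1 of 14 deoxynucleotide enzymes and 3 and 1 of 20 cycle regulators. The enzymes higher in KO were, of the purine route, Prps1, Ppat, Gart, Pfas, Paics, Adsl, Atic, Impdh2, Gmps and Adss, and, of the pyrimidine route, Cad, Umps, Ctps and Cmpk1. Their changes lay between 0.33 for Cmpk1 and 0.77 for Cad, with adjusted p-values of 0.0037 to 0.0347. Impdh1, the constitutive isoform of IMP dehydrogenase, fell with 14.9, 13.7 and 13.9 RPKM in KO libraries, against 17, 21.4 and 19.1 RPKM in Ctrl libraries, no overlap and the opposite direction to Impdh2 (log2 change -0.41, SE 0.10, adjusted p = 0.032). Impdh2 had 159.7, 154 and 146 RPKM in KO libraries, against 113, 127 and 108 RPKM in Ctrl libraries (log2 change 0.40, SE 0.081, adjusted p = 0.0142).

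Fork factors higher in activated KO cells in the 6-library fit were Dna2, Recql4, Wdhd1, Tipin, Dscc1, Chaf1a, Chaf1b, Uhrf1 and Dnmt1, with changes of 0.36 for Wdhd1 to 0.56 for Recql4. Dnmt1, which copies DNA methylation behind the fork, had 68.6, 58.2 and 62.3 RPKM in KO libraries, against 52.04, 46.4 and 39.7 RPKM in Ctrl libraries (log2 change 0.45, SE 0.11, adjusted p = 0.0248). Uhrf1, which recruits Dnmt1, had 178, 194 and 160.05 RPKM in KO libraries, against 130.3, 136 and 124 RPKM in Ctrl libraries (log2 change 0.44, SE 0.085, adjusted p = 0.0119). Both were without overlap, as was Pold4, a small polymerase delta subunit, in the other direction, with 38.1, 31.8 and 32.4 RPKM in KO libraries, against 41.9, 42.7 and 47.4 RPKM in Ctrl libraries (log2 change -0.36, SE 0.093, adjusted p = 0.034). Shmt1, Mthfd1 and Dctd rose (changes 0.79, 0.60 and 0.88), and Samhd1, which breaks deoxynucleotides down, had 18.9, 17.8 and 17.9 RPKM in KO libraries, against 24.5, 25.5 and 25.1 RPKM in Ctrl libraries and fell (log2 change -0.44, SE 0.080, adjusted p = 0.00919). Of the cycle regulators E2f4, E2f8 and Tfdp1 rose (changes 0.34, 0.35 and 0.44), and Cdkn1b, the inhibitor p27 of cyclin-dependent kinases, had 4.66, 3.68 and 4.92 RPKM in KO libraries, against 6.29, 7.28 and 7.73 RPKM in Ctrl libraries and fell (log2 change -0.58, SE 0.14, adjusted p = 0.0234).

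In plasma cells the 18-library fit called 0 of the 87 genes (4 at an unadjusted p under 0.05, beside 5.87% of all genes), and in the 6-library fit 4 rose in KO, Mthfd1, Umps, Prps2 and Gart (changes 0.71, 0.49, 0.58 and 0.43), and 1 fell (background 2.38% and 2.73%). That was Samhd1, with 48.9, 50.3 and 49.97 RPKM in KO libraries, against 57.9, 61.1 and 58.8 RPKM in Ctrl libraries (log2 change -0.25, SE 0.061, adjusted p = 0.0474). In naive cells Recql4 and Nme1 were higher in KO (changes 1.22 and 0.38) and Mthfd1, Impdh1 and Chek1 lower (-0.71, -0.83 and -1.33) in the 18-library fit (background 2.1% and 5.12%), and 0 and 0 in the 6-library fit, which had 5 at an unadjusted p under 0.05, beside 7.02% of all genes. From naive to activated Ctrl cells 62 of 87 rose and 8 fell (background 19% and 39.4%). The smallest p-values among those higher belonged to Uhrf1, Ccna2, Top2a and Cdk4 (changes 3.75, 6.34, 4.31 and 1.28, adjusted p = 2.09e-12, 4e-10, 6.45e-10 and 5.82e-09). Those lower were led by Tk2, Samhd1, Ctps2 and Dguok (changes -1.81, -0.92, -1.09 and -0.85, adjusted p = 6.57e-06, 1.26e-05, 0.000188 and 0.000297), among them the mitochondrial kinases Tk2 and Dguok. From activated to plasma cells of Ctrl 13 of 87 rose and 26 fell (background 16.1% and 16.7%), with 16 and 44 in the 6-library fit (background 24.1% and 26.2%). Impdh1, Cmpk1, Nme2 and Samhd1 led those higher (changes 2.80, 1.58, 1.06 and 1.21, adjusted p = 1.92e-10, 2.54e-07, 2.6e-07 and 3.51e-07), and Impdh2, Uhrf1, Pold4 and Tk2 those lower (changes -1.29, -1.44, -2.22 and -2.10, adjusted p = 2.13e-08, 1.81e-07, 5.09e-07 and 7.91e-07). The 2 IMP dehydrogenase genes moved in opposite directions: Impdh1 had 136, 143 and 137 RPKM in plasma cell Ctrl, against 17, 21.4 and 19.1 RPKM in activated Ctrl libraries, and Impdh2 had 50.6, 47.2 and 42.3 RPKM in plasma cell Ctrl, against 113, 127 and 108 RPKM in activated Ctrl libraries.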

How the data were processed

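RNA-seq was read in 18 libraries, 3 per group, made from 1000 cells each with SMART-seq v4 and Nextera XT kits, per the labels' protocols. The deposited table holds RPKM computed by the authors, 1 row per gene. STAR and the mm10 build are named in the submitters' processing notes, and for their versions, the read counter and the annotation no information was given in the sources used here. All 18 value columns were used (0 not used).

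Each library's RPKM was divided by a factor from the median of ratios (0.903 to 1.07) over 8012 genes above 1 RPKM in all libraries. Genes with a mean of at least 1 RPKM in at least 1 group were tested (12787 of 12960, all 52 members among them). The limma model (version 3.58.1, R 4.3.3, trend over mean level) was fitted to log2(scaled RPKM + 1), either over 18 libraries as the main fit or over those compared, with Benjamini-Hochberg adjustment and a threshold of 0.05. The + 1 understates the changes of low genes. Gene positions are from RefSeq, promoters from RefSeq (GRCm38.p6), and exon lengths and exon overlaps from GENCODE M21 (GRCm38). Python 3.11.15 with numpy 2.4.6, pandas 2.3.3 and matplotlib 3.10.9 made the tables and figures.

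Read totals are not part of the RPKM table. Depth was estimated from the steps between low RPKM values, and only 33.5% to 44.4% of the values scored lay within 0.1 of a whole number of reads, so no count test was run and depths are approximate.

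Members named with every library value were, within each role and comparison, the member with the largest change and that with the smallest p, members called in a comparison of KO with Ctrl, members called against the direction of most of their class, and the deleted gene. Further genes were named where called in a comparison of KO with Ctrl, or among the 4 smallest p-values per step and direction. Orc5, Orc3, E2f1, Ccne2 and the neighbours Spib and Lat2 are also given where the text singles them out. The members, gene lists and markers were chosen with earlier results of these data known. Some marker genes are not reported here and are left out of the marker sums. Alternatives changed the scaling, pseudocount, filter, libraries fitted, library weights and replicate block. Combining each of the scaling, pseudocount, filter and weight settings with the fit of the libraries compared was chosen after seeing the data.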

Additional observations from a re-analysis of the deposited data

Results flagged for a closer look

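A difference of the KO effect between cell types was called for 5 members by a test of the difference itself, in no case in both fits. For Ccne2, the KO effect in plasma cells minus that in activated B cells was -0.62 on the log2 scale, called only in the fit of those 4 groups. For Mcm3, Mcm10, Lig1 and Rrm1, the effect in activated B cells minus that in naive B cells was 0.82, 1.43, 1.51 and 0.80, and for Mcm10 and Lig1, the effect in plasma cells minus that in naive B cells was 1.16 and 1.36. These last 6 differences passed in the 18-library fit, whose shared spread is smaller than that of the naive libraries. They did not pass in the fits of the 4 groups compared. No group held more than 3 libraries, so single libraries were not examined as outliers.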

How the results depend on the processing

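None of the results changed sign under an alternative while called. Member counts under alternatives, here and with libraries left out above, are mostly given without the share over all genes. Calls over all genes moved with the setting too. In activated KO cells 0.422% of genes were higher in the 18-library fit, and 5.26% in the fit of the libraries compared. A changed count of members is therefore not by itself a change particular to them. In 18-library fits, members higher in activated KO cells numbered 1 in place of 0 with RPKM as deposited, a pseudocount of 0.1 or a filter at 5 RPKM, 18 in the fit of the libraries compared, 24 without the 6 naive libraries, 25 with library weights and 19 with the replicate block in the fit of the libraries compared. Those lower numbered 1 under each of the last 4. For plasma cell KO the counts of 0 higher and 0 lower became 1 and 1 in the fit of the libraries compared, 2 and 1 without naive libraries, 6 and 2 with weights and 5 and 1 with the block in that fit. Within that fit they were 2 higher with RPKM as deposited, 3 higher and 2 lower with weights and 5 higher with the replicate block. For naive KO, 3 were higher with quantile normalization and 1 with the block, and the 3 lower became 0 in the fit of the libraries compared, with weights or with block and that fit.

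Members lower in activated than in naive cells numbered 1 in Ctrl (in place of 3) with the block in the fit of the libraries compared, and in KO 1 in place of 2 with RPKM as deposited, that fit, weights or the block and 0 with block and that fit. For plasma cells against activated cells in Ctrl, 10 in place of 3 rose in the fit of the libraries compared, without naive libraries, with weights and with block and that fit, and 24, 23, 23 and 23 in place of 14 fell. With RPKM as deposited 22 fell, and 5 in place of 10 rose in the fit of the libraries compared. In KO, 1 in place of 2 rose with RPKM as deposited, and 34, 35, 33 and 33 in place of 20 fell under the same 4 settings, with 5 in place of 3 higher with weights in the fit of the libraries compared. Plasma cell KO against naive KO had 1 in place of 2 lower with block and that fit. KO effects in plasma minus activated cells gave 1 lower in place of 0 in the fit of 4 groups, without naive libraries or with block and that fit, and 4 with weights. Activated minus naive gave 0 in place of 4 in the fit of 4 groups, with weights or with block and that fit. Plasma minus naive gave 0 in place of 2 under those and with quantile normalization, and 1 with a pseudocount of 0.1 or the block. Beyond the smaller sets of libraries, the cause was not tested.

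Leaving out 1 library at a time gave 4 to 15 higher and 0 to 1 lower for activated KO and 0 to 1 for plasma cell KO in each direction, in fits of the libraries compared. In 18-library fits it gave 0 to 3 higher and 2 to 6 lower for naive KO, 1 to 2 lower for activated against naive KO, 9 to 12 lower for plasma cell against activated Ctrl, 12 to 14 lower for the same step in KO, 1 to 8 higher and 0 to 1 lower for activated minus naive KO effects, and 0 to 6 higher and 0 to 1 lower for plasma minus naive. Of the alternative counts 419 stayed within 1.5 times the count reported and 117 did not.

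In activated against naive Ctrl cells quantile normalization put the median over all genes at -0.055 in place of -0.29, with 2693 genes higher and 2847 lower in place of 2424 and 5041, and the member median at 1.93. In plasma cell against activated Ctrl cells RPKM as deposited gave a median over all genes of -0.14, 1547 genes higher and 2988 lower in place of 2055 and 2141, and a member median of -0.37. In naive KO against Ctrl quantile normalization gave 415 higher and 372 lower in place of 269 and 655. In no comparison did all same-numbered libraries deviate together beyond a correlation of 0.1 (correlations of -0.21, -0.17 and 0.070 for activated, 0.068, 0.20 and 0.31 for plasma cell and -0.00094, -0.19 and -0.12 for naive KO and Ctrl). As a hint from the data, not the design, 2, 5 and 0 of 6 libraries in these 3 comparisons correlated best with their own number. The numbers were not taken as pairs, and the replicate number was used as a block only in the fits above.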

Other observations

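Ratios between partner subunits of the same complex, set by the RPKM of each library, differed between cell types (mean ± SD, n = 3 each). Rrm2 over Rrm1, the 2 subunits of ribonucleotide reductase, was 3.79 ± 0.178 in plasma cell KO and 5.06 ± 0.481 in plasma cell Ctrl libraries, and 1.85 ± 0.0901 in activated KO and 2.04 ± 0.120 in activated Ctrl libraries. The plasma cell ratios did not overlap between genotypes: 3.67 to 3.99 in KO, against 4.72 to 5.61 in Ctrl. Cdt1 over Gmnn, the loader and its inhibitor, was 0.309 ± 0.0152 in plasma cell KO and 0.347 ± 0.0119 in plasma cell Ctrl libraries, and 0.146 ± 0.0236 in activated KO and 0.174 ± 0.0113 in activated Ctrl libraries. Mcm6 over Mcm3, both part of the helicase ring, was 1.31 ± 0.0959 in plasma cell KO and 1.47 ± 0.119 in plasma cell Ctrl libraries, and 0.723 ± 0.0608 in activated KO and 0.777 ± 0.0324 in activated Ctrl libraries. Pold1 over Pold2 was 0.300 ± 0.0321 in plasma cell KO and 0.240 ± 0.0262 in plasma cell Ctrl libraries, and 1.00 ± 0.0177 in activated KO and 0.949 ± 0.0699 in activated Ctrl libraries. Rfc1 over Rfc2 was 0.105 ± 0.00674 in plasma cell KO and 0.0972 ± 0.00218 in plasma cell Ctrl libraries. In activated cells it was 0.0739 ± 0.00205 in KO and 0.0657 ± 0.0059 in Ctrl libraries. Also without overlap between genotypes were Cdt1 over Gmnn in both cell types, Pold1 over Pold2 in plasma cells and Rfc1 over Rfc2 in activated cells. How many other gene pairs do not overlap was not counted. The pairs shown were chosen after their values were seen, and no test was made.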
